A study of Mus musculus with 12 samples.

Results

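MHC class I molecules display peptides from inside the cell to CD8+ T cells, and the genes described here make and load those peptides. The set holds 10 genes: B2m, Tap1, Tap2, Tapbp, Psmb8, Psmb9, Psmb10, Erap1, Nlrc5 and H2-T23. An array measures a transcript with a probe set, a group of short oligonucleotides. Members were all probe sets that the platform's probe table assigns to these symbols, 18 of 45101 on the array. Of these 18, 16 passed a filter on low values, and each of the 10 genes kept at least 1. The brightest probe set of every gene was above the median of its array on all 12 arrays, so no member passed through one group alone. Both probe sets of H2-T23 are assigned jointly to H2-T23 and H2-T-ps, so 9 genes entered the test across genes, out of 11325 tested and 18193 named on the array.

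The RNA came from splenocytes of DBA/2 mice aged 10 weeks that had been cocultured for 9 days with KLN-205 cells, a mouse squamous cell carcinoma line. SEMA3A was knocked down in the tumour cells of all 4 groups, control included, and 100 units/mL of interleukin-2 were added every 3 days. In the group called SEMA6A the tumour cells overexpressed SEMA6A, a membrane-bound semaphorin. The SEMA3A group had 10 µg/mL of purified SEMA3A, a secreted semaphorin, and the SEMA6A+SEMA3A group had both. The control group had knockdown tumour cells alone. Each group had 3 arrays, but no label states whether these were independent cultures or mice. The p-values therefore measure the spread between arrays, which may be technical. The labels name neither the construct that drove SEMA6A nor whether a tumour line was 1 clone.

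Proteins in the cytosol are cut by the proteasome, whose interferon-inducible subunits Psmb8, Psmb9 and Psmb10 take the place of Psmb5, Psmb6 and Psmb7 to form the immunoproteasome. Peptides are pumped into the endoplasmic reticulum by the Tap1-Tap2 transporter, trimmed there by the aminopeptidase Erap1, and loaded onto the heavy chain and its light chain B2m with the help of tapasin, the product of Tapbp. Interferon-gamma, which activated T cells and NK cells secrete, raises the transcription of the whole set, in part through the class I transactivator Nlrc5.

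Of the 10 genes, 6 lie on mouse chromosome 17 in RefSeq's annotation of assembly GRCm38.p6, and Psmb9, Tap1, Psmb8 and Tap2 are a cluster there. Psmb9 lies at chr17:34182030-34187330, Tap1 at chr17:34187556-34197225, Psmb8 at chr17:34198195-34201454 and Tap2 at chr17:34204479-34216321. On the same chromosome lie Tapbp (chr17:33919478-33929290) and H2-T23 (chr17:36029977-36032701). B2m lies at chr2:122147687-122153082, Erap1 at chr13:74639573-74693205, Psmb10 at chr8:105935728-105938392 and Nlrc5 at chr8:94434335-94527272. The start regions of B2m, of the Psmb9-Tap1 pair and of Psmb8 are shown because B2m gave the widest difference of the set and Tap1, Psmb8 and Psmb9 had SEMA3A arrays that all lay above the control arrays. All are from RefSeq (GRCm38.p6, the plus strand of the C57BL/6J genome, not DBA/2), and capitals mark matches to the motifs that follow.
B2m, chr2:122147437-122147686, the 250 bases before the gene's start: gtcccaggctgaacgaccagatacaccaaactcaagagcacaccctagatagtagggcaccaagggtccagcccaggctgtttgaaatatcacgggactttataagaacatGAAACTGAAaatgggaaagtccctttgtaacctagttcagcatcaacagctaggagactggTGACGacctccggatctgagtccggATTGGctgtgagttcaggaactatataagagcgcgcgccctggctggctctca
Psmb9-Tap1, chr17:34187331-34187555, the 225 bases between the starts of Psmb9 (to the left, minus strand) and Tap1 (to the right, plus strand): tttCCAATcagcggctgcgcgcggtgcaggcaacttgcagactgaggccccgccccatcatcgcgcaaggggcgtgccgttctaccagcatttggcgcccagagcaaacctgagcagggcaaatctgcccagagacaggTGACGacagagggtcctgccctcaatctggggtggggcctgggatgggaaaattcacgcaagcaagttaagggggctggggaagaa
Psmb8, chr17:34198075-34198194, the 120 bases before the start: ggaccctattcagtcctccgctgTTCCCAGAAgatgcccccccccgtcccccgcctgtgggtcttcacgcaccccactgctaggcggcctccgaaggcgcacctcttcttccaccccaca

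Windows of 250 bases before the start were at hand for 8 of the 10 genes, without Tap2 and Nlrc5, and both strands were searched. The core of the interferon-stimulated response element, GAAANNGAA, was found in 3 of 8 (B2m, Erap1 and H2-T23) and in 7.13% of 32851 windows of the whole annotation. The gamma-activated site TTCNNNGAA was found in 1 of 8, that of Psmb8, and in 7.02% of all windows. The core TGACG of the X2 box, part of the promoter module that Nlrc5 acts on, was found in 3 of 8 and in 17.8% of all. These 3 windows are those of B2m, Psmb9 and Tap1, and the last pair share 1 site in the sequence between them. The CCAAT of the Y box was found in 5 of 8 and in 33.8% of all, and here too Psmb9 and Tap1 share 1 site. None of these motifs overlapped another in the sequences shown, and a match describes the letters and not binding.

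The arrays gave 1 intensity per probe set, called signal here, scaled by the authors so that the trimmed mean of each array was 500. Differences between groups are on the scale of log2(signal + 16) after quantile normalization, with the standard error (SE) of the limma fit, and adjusted p-values are Benjamini-Hochberg values over all genes tested. T cell markers were bright, and the summed signal of 10 of them was 38387 to 50443 in SEMA6A, 48044 to 51712 in SEMA3A, 44573 to 46834 in SEMA6A+SEMA3A and 41571 to 48538 in control. Of the NK cell list, 7 of 7 measured genes passed the filter, from Ncr1 between 40.0 and 180 to Gzma between 31418 and 46424. The list summed to 65193 to 69239 in SEMA6A, 68197 to 77384 in SEMA3A, 63100 to 67949 in SEMA6A+SEMA3A and 60199 to 62540 in control. Gzma alone gave the largest part of each sum. Of the B cell list 3 of 7 passed, with Ms4a1 at 25.9 to 43.9, and Cd4 did not pass, at 4.01 to 13.0. For tumour cells, 15 of 22 squamous carcinoma genes passed, and their list summed to 3643 to 5272 in SEMA6A, 3464 to 4350 in SEMA3A, 3750 to 4312 in SEMA6A+SEMA3A and 3601 to 4167 in control, while Krt14 stayed between 1.29 and 43.9. Sema6a and Sema3a had 3 probe sets each, none past the filter, with signals up to 44.6 and 51.3, so these arrays did not check the manipulation of the tumour cells. Fewer cells of a type and less RNA per cell cannot be told apart in these bulk samples, and both splenocytes and any tumour cells left can express the class I genes. Whether the mix of cells had a part in the members' values was not tested.

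SEMA6A replicate 2 stood apart. Its ratio of 3' to 5' probe sets, a measure of RNA length, was 1.22 for Gapdh against 0.767 to 0.818 on the other 11 arrays, and 35.7 for the transferrin receptor against 5.93 to 23.3. The transferrin receptor's ratio also differed between groups, at 8.39 and 23.3 on the other SEMA6A arrays, 17.2 to 18.1 in SEMA3A, 5.93 to 12.2 in SEMA6A+SEMA3A and 6.82 to 9.34 in control. All SEMA3A arrays were thus above all controls in this ratio, while those of Gapdh overlapped, at 0.771 to 0.796 in SEMA3A and 0.780 to 0.818 in control. That array was the lowest of 12 for B2m, Psmb9, Psmb10 and Erap1 (4 of 9 members, against 19.9% of all genes) and the highest for Tap1 (26.4% of all genes were highest there). Relative to the median of the other arrays it was at -0.89 log2 units for B2m, -0.70 for Erap1 and 0.24 for Tap1. Members' differences that leaving it out moved most are given with and without it.

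No member passed an adjusted p of 0.05 in any comparison, and neither did any other gene. In SEMA6A against control 0 of 9 members passed, beside 0% of 11325 genes. In SEMA3A against control it was again 0 of 9 and 0%, and likewise in SEMA6A+SEMA3A against control, against SEMA3A and against SEMA6A (0 of 9 and 0% in each). The interaction, the difference that SEMA6A made in the presence of SEMA3A minus the difference it made without, gave 0 of 9 and 0%, as did the F-test of any difference among the 4 groups. At an unadjusted p below 0.05, 0 of 9 members passed in SEMA6A against control (10.5% of all genes) and 1 of 9, Psmb9, in SEMA3A against control (8.75%). The count was 0 of 9 in SEMA6A+SEMA3A against control (4.10%), against SEMA3A (11.2%) and against SEMA6A (11.5%), in the interaction (18.0%) and in the F-test (8.67%).

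The size of the members' differences had a median of 0.08 log2 units in SEMA6A against control, beside 0.15 over all genes, and 0.12 beside 0.13 in SEMA3A against control. In SEMA6A+SEMA3A it was 0.10 against control (0.10 over all genes), 0.09 against SEMA3A (0.15) and 0.11 against SEMA6A (0.16). By mean signal the members' brightest probe sets lay between percentile 91.1 (Tap2) and 99.7 (B2m) of the array. All genes tested include dimmer ones, and the members were not compared with genes of like brightness. The 95% intervals of all 45 differences, 9 genes in 5 comparisons, lay between 0.582-fold and 1.54-fold. The interval of Psmb8 was the tightest, 0.853-fold to 1.17-fold over its 5 differences, and those of B2m (0.582-fold to 1.53-fold) and Erap1 (0.646-fold to 1.54-fold) were the widest. A p that misses the threshold does not show that the groups were alike, and these bounds hold for the brightest probe sets. The second probe set of Psmb8 reached beyond them, at 1.20-fold to 2.30-fold in SEMA6A+SEMA3A against SEMA3A, and the second of Tapbp went down to 0.484-fold in SEMA6A against control. The dim second of Tap1 reached 2.66-fold in SEMA3A against control and 0.474-fold in SEMA6A+SEMA3A against SEMA3A. In the latter comparison the second of Erap1 reached 1.92-fold.

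**Figure D1:**
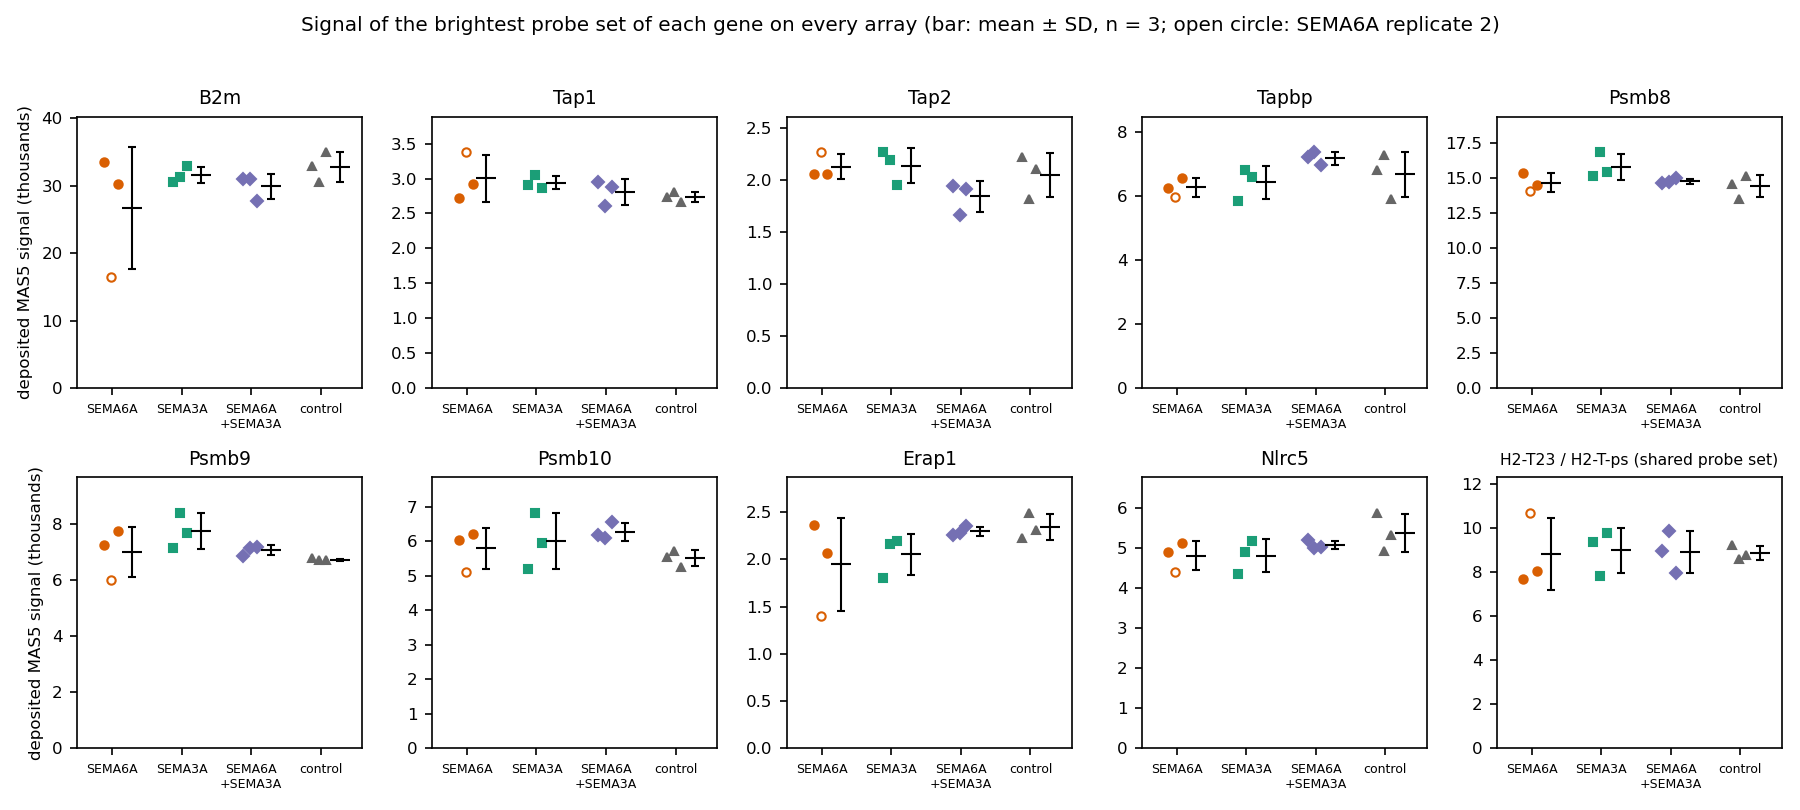
Deposited signal (y axis, from 0, in units of 1000) of the brightest probe set of each of the 10 genes in the 4 groups (x axis); symbols are single arrays and bars the mean ± SD of 3. The open circle is SEMA6A replicate 2, which had the lowest B2m (16420) and Erap1 (1401) signals, while Psmb8 lies between 13508 and 16807 on all arrays.

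The 3 interferon-inducible proteasome subunits were bright on every array. Psmb8 (probe set 1422962_a_at) had signals of 15364, 14013 and 14501 in SEMA6A, 15102, 16807 and 15410 in SEMA3A, 14584, 14689 and 14951 in SEMA6A+SEMA3A, and 14576, 13508 and 15098 in control. The means were 14626 ± 684, 15773 ± 909, 14741 ± 189 and 14394 ± 811 in the same order (SD, n = 3 each). All SEMA3A arrays lay above all control and all SEMA6A+SEMA3A arrays, with the lowest at 15102 beside the highest control at 15098, and SEMA6A overlapped every other group. The spread of Psmb8 within groups was 0.0604 log2 units, and 2.16% of all genes had a smaller one. Its mean signal was at percentile 99.0 of the array, so most of those genes were dimmer. In its start region the TTCNNNGAA match lies 97 to 89 bases before the start.

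Psmb9 (1450696_at) had signals of 7235, 6005 and 7745 in SEMA6A, 7138, 8404 and 7682 in SEMA3A, 6865, 7143 and 7173 in SEMA6A+SEMA3A, and 6769, 6715 and 6701 in control. Every SEMA3A and every SEMA6A+SEMA3A array was above the controls, which had an SD of 35.9 around a mean of 6728 (n = 3). Against control, the SEMA3A difference of Psmb9 was 0.20 ± 0.09 (SE) with an unadjusted p of 0.043 and an adjusted p of 0.564. Psmb9 was the gene nearest to a call in the set at the unadjusted level, and without SEMA6A replicate 2 its difference stayed at 0.20 ± 0.07 with an adjusted p of 0.283.

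Psmb10 (1448632_at) had signals of 6040, 5114 and 6208 in SEMA6A, 5206, 6827 and 5955 in SEMA3A, 6171, 6077 and 6547 in SEMA6A+SEMA3A, and 5549, 5706 and 5251 in control. The SEMA6A+SEMA3A arrays all exceeded the controls, and the groups with 1 factor overlapped them. The SEMA6A+SEMA3A difference from control was 0.19 ± 0.10 (SE), unadjusted p 0.0871 and adjusted p 1. Psmb10 was above 0 in all 5 comparisons, between 0.07 and 0.19, without passing in any.

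The subunits they replace were measured as well. Psmb5 averaged 7190 ± 371 in SEMA6A, 7055 ± 99.8 in SEMA3A, 6896 ± 382 in SEMA6A+SEMA3A and 7007 ± 180 in control (SD, n = 3). Psmb6 averaged 7476 ± 815, 7594 ± 283, 7816 ± 168 and 7428 ± 257 in that order, and Psmb7 4898 ± 558, 4668 ± 597, 4913 ± 1030 and 4444 ± 607. None of these 3 constitutive subunits passed an unadjusted p of 0.05 in any comparison or the interaction. Psme1, a subunit of the interferon-inducible proteasome activator, averaged 12618 ± 1400, 13178 ± 1090, 13728 ± 606 and 12749 ± 321, and its differences from control were -0.03 ± 0.08 in SEMA6A, 0.02 ± 0.08 in SEMA3A and 0.08 ± 0.08 in SEMA6A+SEMA3A (SE). Its partner Psme2 was not analysed here as a single gene.

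Tap1 (1416016_at), which forms the peptide transporter with Tap2, had signals of 2719, 3377 and 2923 in SEMA6A, 2905, 3046 and 2872 in SEMA3A, 2956, 2604 and 2880 in SEMA6A+SEMA3A, and 2742, 2801 and 2661 in control. The SEMA3A arrays all lay above the controls, and SEMA6A and SEMA6A+SEMA3A overlapped them. Tap1's difference from control was 0.13 in SEMA6A, 0.12 in SEMA3A and 0.04 in SEMA6A+SEMA3A, with SE 0.09 in the first. Without SEMA6A replicate 2 the SEMA6A value of Tap1 was 0.05 ± 0.08. Of its other 3 probe sets, 1 passed the filter through 7 arrays, with an SE of 0.37, and 2 were below the median of every array. Tap1 and Psmb9 share the 225 bases shown above, in which the TGACG core lies 86 to 82 bases before the start of Tap1.

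Tap2 (1453913_a_at), its partner, had signals of 2059, 2265 and 2059 in SEMA6A, 2265, 2193 and 1946 in SEMA3A, 1945, 1667 and 1912 in SEMA6A+SEMA3A, and 2220, 1814 and 2109 in control. The SEMA6A+SEMA3A arrays were all below the SEMA6A arrays and, by a margin of 1 unit of signal, below the SEMA3A arrays, while the controls overlapped all groups. The SEMA6A+SEMA3A difference of Tap2 was -0.21 ± 0.11 against SEMA3A (unadjusted p 0.0681, adjusted p 0.457), -0.19 against SEMA6A and -0.13 ± 0.11 against control (SE).

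Tapbp (1421812_at) codes for tapasin, which holds empty class I molecules at the transporter. Its signals were 6273, 5979 and 6587 in SEMA6A, 5860, 6841 and 6611 in SEMA3A, 7223, 7381 and 6985 in SEMA6A+SEMA3A, and 6835, 7309 and 5924 in control. With both factors the 3 arrays were above every array with 1 factor, and the controls spread over the whole range. The SEMA6A+SEMA3A difference was 0.18 ± 0.09 against SEMA6A (unadjusted p 0.0605, adjusted p 0.444) and 0.15 ± 0.09 against SEMA3A (SE).

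Of the chaperones around tapasin, those that follow did not pass an unadjusted p of 0.05 in any comparison. Calr, the chaperone calreticulin, averaged 18634 ± 1400 in SEMA6A, 19029 ± 1970 in SEMA3A, 17684 ± 646 in SEMA6A+SEMA3A and 18839 ± 784 in control (SD, n = 3). Canx, calnexin, averaged 14937 ± 264, 14450 ± 620, 15350 ± 1080 and 14805 ± 1560 in that order. Pdia3, the disulfide isomerase bound to tapasin, had 8048 on SEMA6A replicate 2 and 13984 to 20158 on the other arrays. Tapbpl, the tapasin-like editor of peptides, had differences of 0.04 ± 0.12 in SEMA6A, -0.13 ± 0.12 in SEMA3A and -0.13 ± 0.12 in SEMA6A+SEMA3A, each against control (SE).

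Erap1 (1416942_at) had signals of 2364, 1401 and 2072 in SEMA6A, 1798, 2167 and 2191 in SEMA3A, 2258, 2282 and 2352 in SEMA6A+SEMA3A, and 2227, 2495 and 2311 in control. All SEMA3A arrays were below all arrays of SEMA6A+SEMA3A and of control, and SEMA6A, with its low replicate 2, overlapped them all. The difference of Erap1 was -0.29 ± 0.16 in SEMA6A against control (adjusted p 0.484) and 0.28 ± 0.16 in SEMA6A+SEMA3A against SEMA6A (SE). Its interaction was 0.46 ± 0.22, unadjusted p 0.0553 and adjusted p 0.285. Without SEMA6A replicate 2 these values were -0.07 ± 0.10, 0.06 ± 0.10 and 0.24 ± 0.14.

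B2m (1452428_a_at), the light chain shared by all class I molecules, had signals of 33478, 16420 and 30305 in SEMA6A, 30541, 31270 and 32948 in SEMA3A, 30994, 30973 and 27702 in SEMA6A+SEMA3A, and 32854, 30568 and 34964 in control. The groups overlapped in deposited signal, and 16420 on SEMA6A replicate 2 stood alone. The widest of the 45 differences between groups was that of B2m in SEMA6A against control, -0.38 ± 0.18 (SE), unadjusted p 0.0568 and adjusted p 0.477. Without replicate 2 it was -0.07 ± 0.06, adjusted p 0.882. In SEMA6A+SEMA3A against SEMA6A, B2m was at 0.21 ± 0.18 with that array and at -0.11 ± 0.06 without it. The interaction of B2m was 0.34 ± 0.26 with that array and 0.03 ± 0.08 without it. With that array left out, B2m had unadjusted p-values of 0.0175 in SEMA3A against control (-0.14 ± 0.05, adjusted p 0.292) and 0.00397 in SEMA6A+SEMA3A against control (-0.18 ± 0.05, adjusted p 0.505), and its SD within groups was then 0.0608 in place of 0.281 log2 units. In the B2m sequence shown above, the GAAANNGAA match lies 139 to 131 bases and the TGACG core 78 to 74 bases before the start.

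The heavy chains are highly polymorphic and near-identical copies share probes, so their values are uncertain. H2-K1 averaged 32713 ± 3510 in SEMA6A, 36234 ± 2530 in SEMA3A, 31580 ± 3190 in SEMA6A+SEMA3A and 32824 ± 4370 in control on its brightest probe set (SD, n = 3). H2-D1 averaged 26211 ± 1900, 29636 ± 1770, 26693 ± 572 and 28046 ± 2820 in that order. In the fit, H2-K1 had a difference of -0.16 ± 0.07 in SEMA6A+SEMA3A against SEMA3A (SE, adjusted p 0.422), and its 4 probe sets disagreed, from -0.16 to 0.47. The 7 probe sets of H2-D1 that passed the filter spanned -0.09 to 0.60 in the same comparison.

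H2-T23 codes for the heavy chain of Qa-1, which presents leader peptides of other class I molecules to the NKG2A receptor. The brighter probe set that it shares with H2-T-ps (1449556_at) had signals of 7686, 10700 and 8049 in SEMA6A, 9382, 7836 and 9764 in SEMA3A, 8945, 9843 and 7954 in SEMA6A+SEMA3A, and 9222, 8598 and 8787 in control. Here SEMA6A replicate 2 was the highest array, and all groups overlapped. In a fit of all 24366 probe sets, in which 0% passed the adjusted threshold in every comparison, its differences from control were -0.03, -0.01 and -0.03 in SEMA6A, SEMA3A and SEMA6A+SEMA3A, each with an SE of 0.13. The second shared probe set gave -0.05, 0.01 and -0.06, with an SE of 0.16.

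Nlrc5 (1437176_at) had signals of 4911, 4417 and 5126 in SEMA6A, 4358, 4920 and 5180 in SEMA3A, 5208, 5003 and 5038 in SEMA6A+SEMA3A, and 5897, 4943 and 5335 in control. The highest array was a control, and every group overlapped the controls. Nlrc5 was -0.17 ± 0.09 in SEMA3A against control (SE, unadjusted p 0.0943, adjusted p 0.597), -0.17 in SEMA6A and -0.10 in SEMA6A+SEMA3A. The SEMA6A value was -0.11 ± 0.09 without replicate 2. Irf1, an interferon-induced activator of these promoters, averaged 2856 ± 447 in SEMA6A, 2689 ± 520 in SEMA3A, 2803 ± 152 in SEMA6A+SEMA3A and 2908 ± 336 in control (SD, n = 3).

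**Figure D2:**
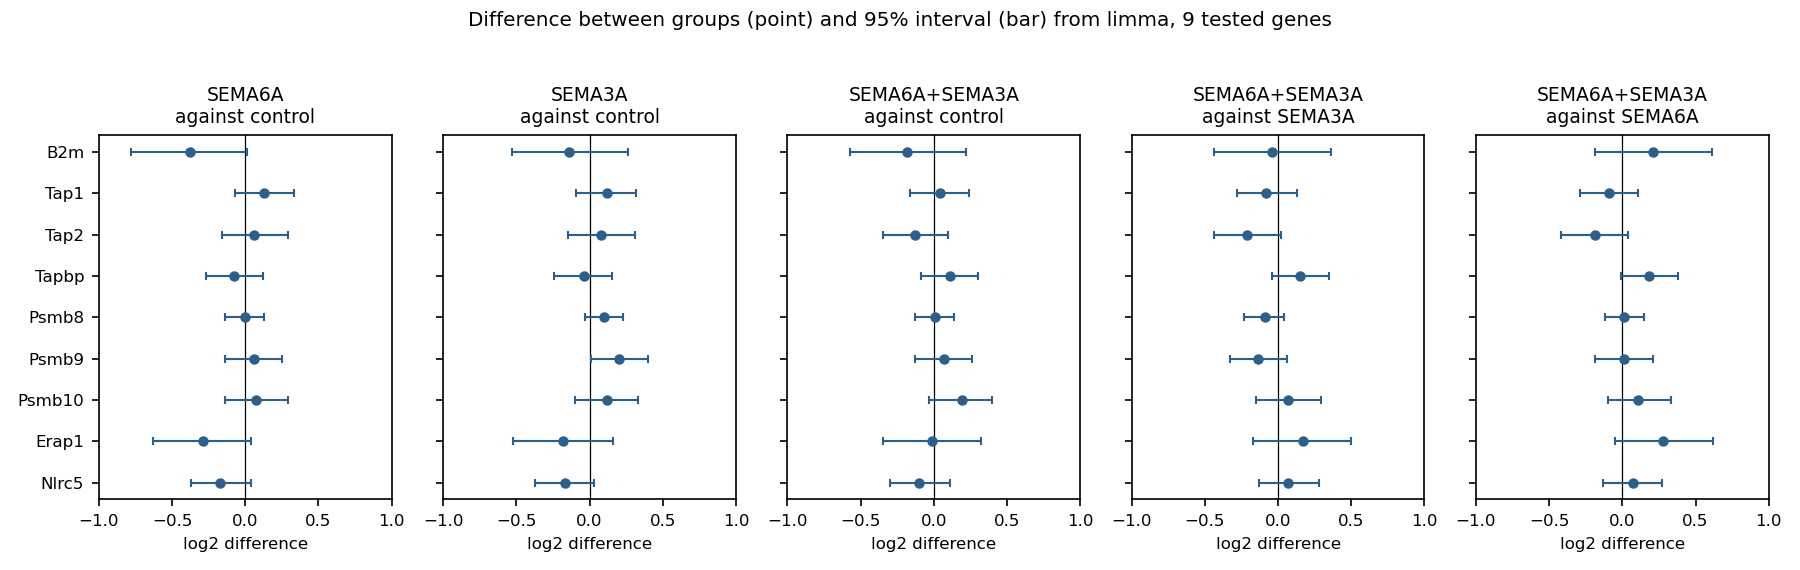
Log2 difference (x axis) of 9 genes (rows) in 5 comparisons (panels) with the 95% interval of the limma fit as a bar; the vertical line is 0. Intervals cross 0 except that of Psmb9 in SEMA3A against control (0.20), and those of B2m and Erap1 are the widest.

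Side by side, the members did not share one direction. The comparisons with control use the same 3 control arrays, so their values are not independent of each other. In SEMA6A against control 4 of 9 members had a difference above 0 and 5 below, with a range of -0.38 to 0.13 and a median of 0.00 (0.02 over all genes). In SEMA3A against control it was 5 above and 4 below, from -0.18 to 0.20, median 0.08 (0.01 over all genes). In SEMA6A+SEMA3A against control 5 were above and 4 below, from -0.18 to 0.19, median 0.01 (0.01 over all genes). Set against SEMA3A, the SEMA6A+SEMA3A group had 4 above and 5 below, from -0.21 to 0.17, median -0.04 (0.01 over all genes). Set against SEMA6A it had 7 above and 2 below, from -0.19 to 0.28, median 0.07 (0.00 over all genes). That count depended on SEMA6A replicate 2. Without this array the comparison ran from -0.14 to 0.16, median -0.01, and B2m, Psmb8 and Psmb9 were below 0. In the interaction 4 were above 0, Erap1, B2m, Nlrc5 and Tapbp, with the last at 0.23, and the range was -0.27, of Tap2, to 0.46.

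Some members had groups that did not overlap after normalization. In SEMA3A against control, Tap1, Psmb8 and Psmb9 were higher on all arrays (3 of 9, against 9.93% of all genes) and Erap1 and B2m lower on all (2 of 9, against 7.30%). The 3'/5' ratio of the transferrin receptor separated these groups too, and its part in these values was not tested. In SEMA6A against control there was no such member in either direction, while 7.37% of all genes were higher and 4.75% lower. In SEMA6A+SEMA3A against control, Psmb9 and Psmb10 were higher (2 of 9, against 8.54%) and B2m was lower (1 of 9, against 6.53%). Against SEMA3A, the SEMA6A+SEMA3A arrays were all higher for Erap1 and Tapbp (2 of 9, against 10.3%) and lower for Psmb8 and Psmb9 (2 of 9, against 10.7%). Against SEMA6A, they were higher for Tapbp (1 of 9, against 6.72%) and lower for Tap2 (1 of 9, against 7.36%). With 9 genes of which several lie side by side on chromosome 17, these counts are descriptions.

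Leaving SEMA6A replicate 2 out of the fit moved B2m and Erap1 the most in SEMA6A against control. Without it the members ranged from -0.11 to 0.15 in SEMA6A against control, with 0 of 9 at an unadjusted p below 0.05 (4.87% of 11242 genes). The unadjusted count was 2 of 9 in SEMA3A against control, Psmb9 and B2m (14.0% of all genes), and 1 of 9 in SEMA6A+SEMA3A against control, B2m (6.82%). It was 1 of 9 against SEMA3A, Tap2 at -0.21 ± 0.10 (17.5%), 0 of 9 against SEMA6A (6.21%), and 1 of 9 in the interaction (15.3%), Psmb9 at -0.29 ± 0.10 with an unadjusted p of 0.0134 and an adjusted p of 0.268. In the F-test it was 2 of 9, Psmb9 (p 0.0477, adjusted p 0.459) and B2m (p 0.0196, adjusted p 0.453), beside 1219 of 11242 genes. At the adjusted threshold 0 of 9 members passed in each. The median SD of the members within groups was 0.111 log2 units with the array (0.191 over all genes) and 0.105 without (0.160 over all genes). Here too bright members stand beside genes that include dimmer ones.

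**Figure D3:**
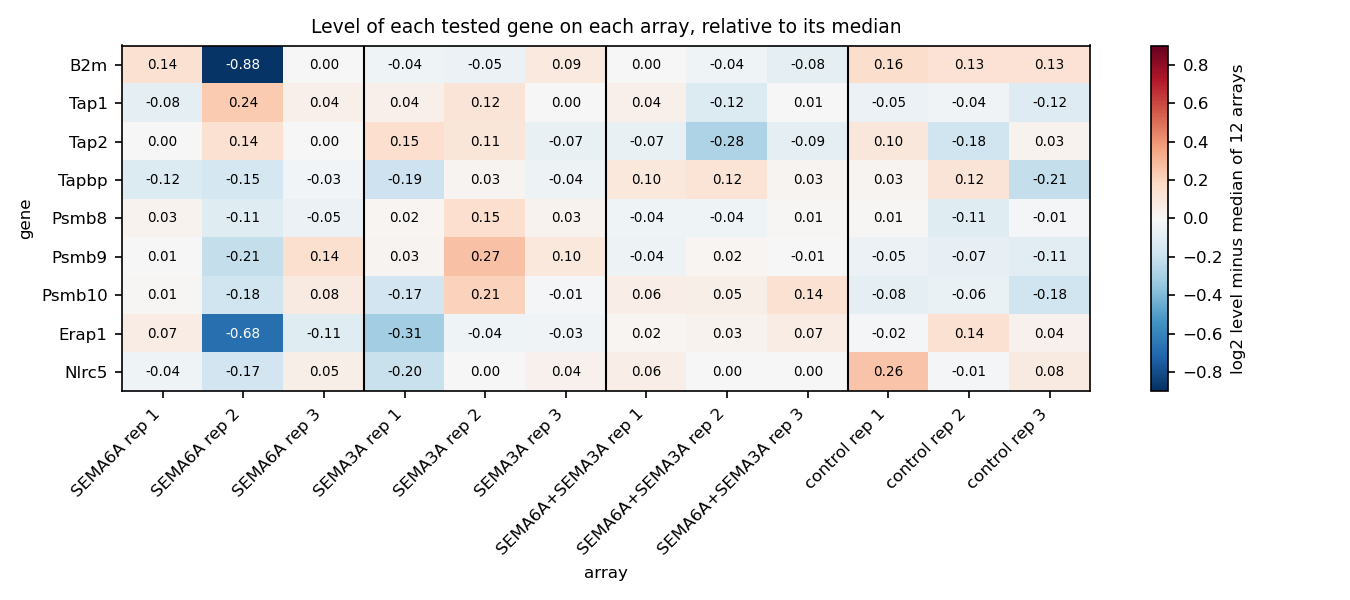
Each cell is the normalized log2 level of 1 tested gene (rows) on 1 array (columns) minus that gene's median over the 12 arrays, with the value printed and colour from blue (low) to red (high). B2m at -0.88 and Erap1 at -0.68 on SEMA6A replicate 2 are the only values beyond 0.31 units, and Tap1 is at 0.24 on the same array.

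Where a gene had more than 1 probe set, the second did not always follow the brightest. In the fit of all probe sets, 0 of 16 member probe sets passed the adjusted threshold in any comparison. At an unadjusted p below 0.05, 1 of 16 passed in SEMA6A against control (9.40% of all 24366), the second of Tapbp, and 1 in SEMA3A against control (8.14%), that of Psmb9. In SEMA6A+SEMA3A it was 1 against control (5.99%), the second of Psmb8, 2 against SEMA3A (11.2%), the second of Psmb8 and of Erap1, and 1 against SEMA6A (10.7%), the second of Erap1. In the interaction 1 passed (15.4%), the second of Erap1, and in the F-test 2, the second of Psmb8 and of Erap1 (9.01%).

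The second of B2m (1449289_a_at) had 30014, 22511 and 28394 in SEMA6A, 29466, 31718 and 29764 in SEMA3A, 30059, 32345 and 29815 in SEMA6A+SEMA3A, and 29234, 28198 and 30750 in control. It was again lowest on SEMA6A replicate 2, by less than the brightest, and its SEMA6A difference from control was -0.12 ± 0.07 (SE, adjusted p 0.564). In SEMA3A and SEMA6A+SEMA3A against control it gave -0.03 and 0.04, where the brightest gave -0.14 and -0.18. The second of Tapbp (1450378_at) had 314, 192 and 382 in SEMA6A, 275, 438 and 301 in SEMA3A, 335, 293 and 291 in SEMA6A+SEMA3A, and 434, 461 and 400 in control. Here the controls were above all SEMA6A and all SEMA6A+SEMA3A arrays, with differences of -0.57 ± 0.22 in SEMA6A (unadjusted p 0.0206, adjusted p 0.525) and -0.45 ± 0.22 in SEMA6A+SEMA3A (adjusted p 0.848), beside -0.08 and 0.11 for the brightest probe set.

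The second of Psmb8 (1444619_x_at) had 328, 504 and 277 in SEMA6A, 276, 261 and 320 in SEMA3A, 454, 481 and 481 in SEMA6A+SEMA3A, and 299, 411 and 231 in control. All SEMA6A+SEMA3A arrays were above those of SEMA3A and control, while the brightest probe set put SEMA3A highest. Its SEMA6A+SEMA3A difference was 0.73 ± 0.22 against SEMA3A (unadjusted p 0.00515, adjusted p 0.355) and 0.62 ± 0.22 against control (unadjusted p 0.0138, adjusted p 0.664), beside -0.09 and 0.01 for the brightest. The second of Erap1 (1439068_at) had 984, 620 and 779 in SEMA6A, 610, 772 and 909 in SEMA3A, 1205, 1083 and 1003 in SEMA6A+SEMA3A, and 879, 1002 and 783 in control. The arrays with both factors lay above all others, the lowest by 1 unit over the highest control. The SEMA6A+SEMA3A difference was 0.55 ± 0.18 against SEMA3A (adjusted p 0.358), 0.51 ± 0.18 against SEMA6A (adjusted p 0.455) and 0.33 ± 0.18 against control (SE, adjusted p 0.896), beside 0.17, 0.28 and -0.01 for the brightest.

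**Figure D4:**
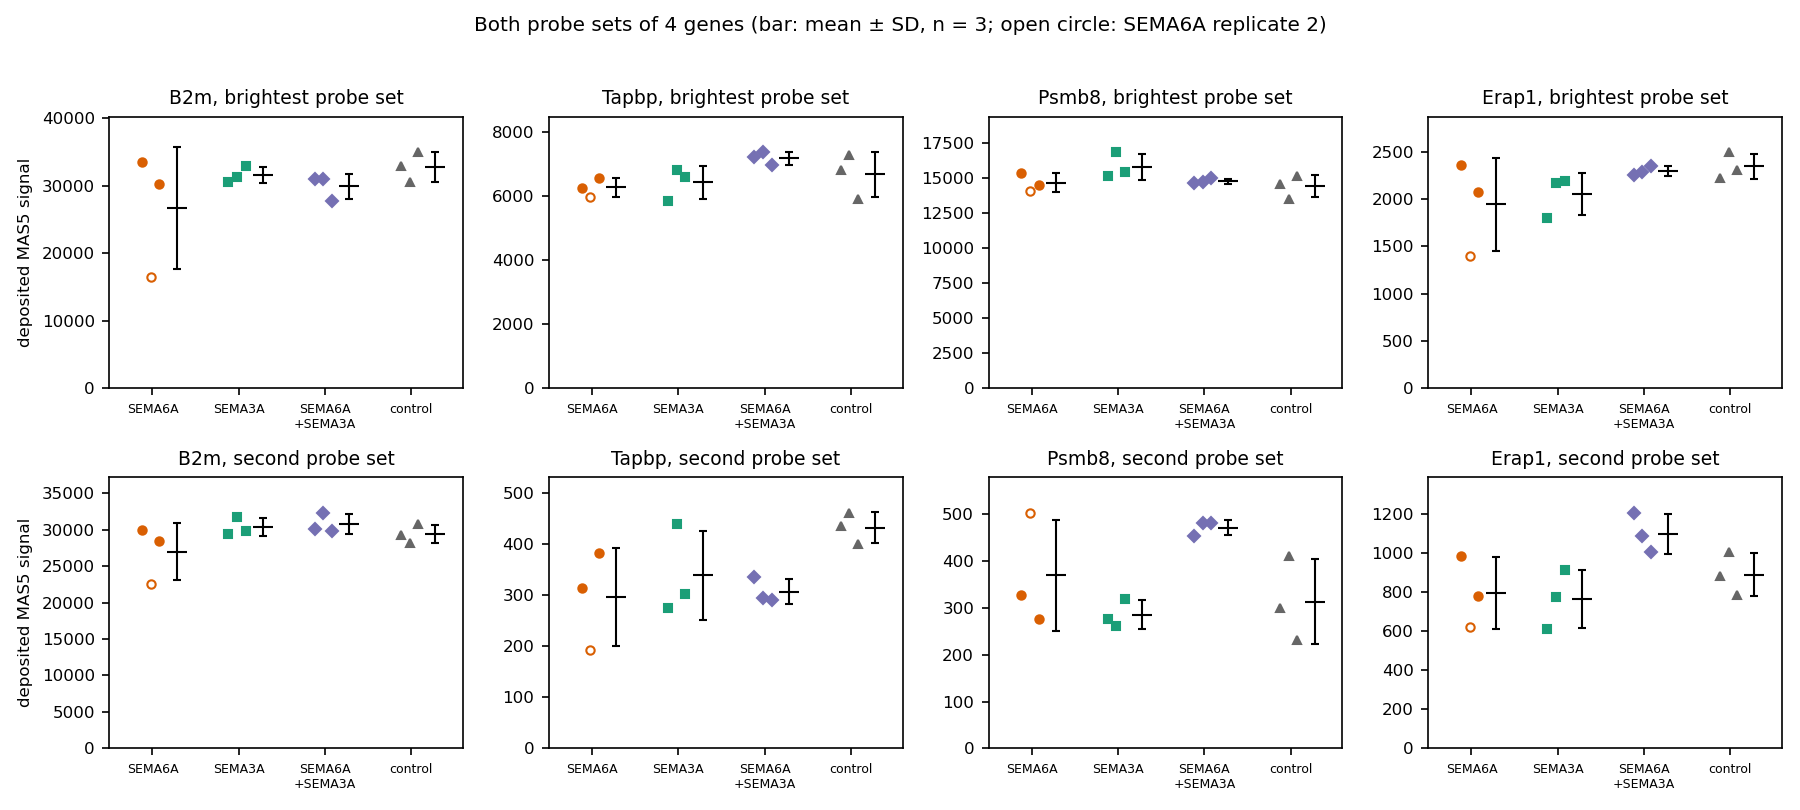
Deposited signal (y axis, from 0) of the brightest (top) and second (bottom) probe set of B2m, Tapbp, Psmb8 and Erap1 in the 4 groups; symbols are arrays, bars the mean ± SD of 3. The order of the groups differs between the probe sets of each gene: the SEMA6A+SEMA3A arrays of Erap1 are above all others on the second (1003 to 1205) but lie among the controls on the brightest (2258 to 2352).

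Ifng, the gene of interferon-gamma, was measured on the same arrays. It had 444, 326 and 248 in SEMA6A, 302, 332 and 534 in SEMA3A, 677, 662 and 588 in SEMA6A+SEMA3A, and 538, 541 and 543 in control. The arrays with both factors were above all others, and those with 1 factor were below the controls. Its differences from control were -0.69 ± 0.22 in SEMA6A (unadjusted p 0.00885, adjusted p 0.475), -0.52 ± 0.22 in SEMA3A (adjusted p 0.559) and 0.26 ± 0.22 in SEMA6A+SEMA3A (adjusted p 1), and the interaction was 1.46 ± 0.32 (SE, unadjusted p 0.000486, adjusted p 0.197).

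Over the 12 arrays, 0 of the 9 members correlated with Ifng at an adjusted p of 0.05 (permutation test, 2-sided, adjusted over 9 relations). The permutations shuffled the 12 arrays regardless of group, so their p-values also take in differences between group means. Genes outside the set were not tested against Ifng, so these counts have no share of all genes beside them. The strongest were Tap2 with Pearson's r = -0.66 (permutation p 0.0192, adjusted 0.112) and Spearman's rho = -0.69 (permutation p 0.0155, adjusted 0.139), and Tap1 with r = -0.60 (permutation p 0.0372, adjusted 0.112) and rho = -0.41 (permutation p 0.186, adjusted 0.334). The sign was negative for both transporter genes and positive for Erap1, with r = 0.60 (permutation p 0.0275, adjusted 0.112) and rho = 0.62 (permutation p 0.034, adjusted 0.153). The others ran from -0.33 (Psmb9) to 0.46 (Tapbp). Without the 2 arrays farthest from the median of Ifng, SEMA6A replicate 3 and SEMA3A replicate 1, r was -0.73 for Tap2, -0.69 for Tap1 and 0.64 for Erap1. Without SEMA3A replicate 1 alone, however, 0 of the 9 had an unadjusted permutation p below 0.05 (lowest adjusted p 0.229), in place of 3. Within groups, as deviations from group means, r was -0.41 for Tap2, -0.43 for Tap1 and 0.33 for Erap1, without a test.

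The second probe set of Erap1 had r = 0.81 with Ifng (permutation p 0.00142, adjusted p 0.0199 over 14 probe sets) and rho = 0.85 (permutation p 0.00089, adjusted p 0.0125). Its r was 0.84 without the 2 farthest arrays and 0.67 within groups, the latter without a test. It was the 1 probe set of 14 that passed, and the brightest of Erap1 did not. How many probe sets outside the set would reach such an r was not tested. Without SEMA6A replicate 2, r of the brightest was 0.69 for Erap1, -0.64 for Psmb9, -0.62 for Tap2 and -0.56 for Tap1. The permutation p was then 0.032 for Psmb9 and 0.0733 for Tap1.

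**Figure D5:**
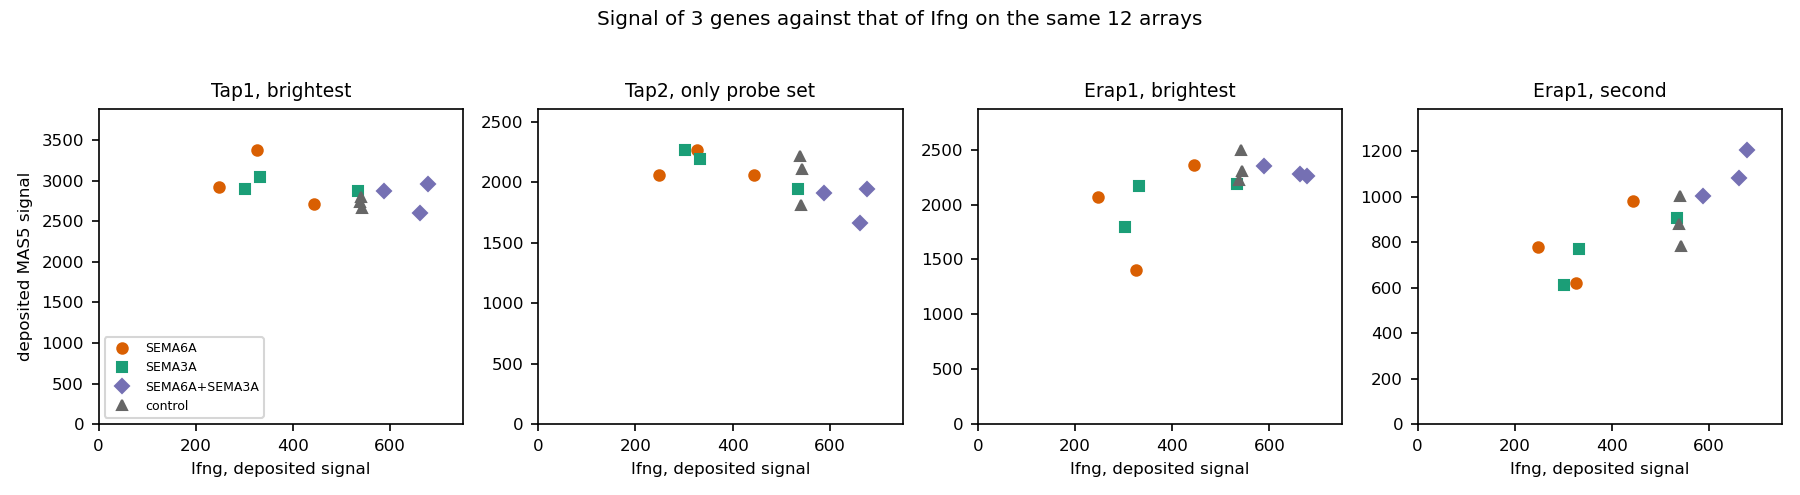
Deposited signal of Tap1, Tap2 and both probe sets of Erap1 (y axes, from 0) against that of Ifng (x axis) on the 12 arrays, with symbols by group. On the log2 scale r was -0.60, -0.66, 0.60 and 0.81 from left to right, and the SEMA6A+SEMA3A arrays hold the highest Ifng signals (588 to 677).

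Of the other genes of the pathway, none passed the adjusted threshold in any comparison or the interaction, in 9 lists. The lists' counts at an unadjusted p below 0.05 are to be read beside the shares of all genes given for each comparison. Of the class I heavy chains, 8 of 20 were tested, each on its brightest probe set alone. At an unadjusted p below 0.05, Cd1d1, which presents lipids, was at 0.55 ± 0.24 in SEMA3A against control. H2-K1 was at -0.16 in SEMA6A+SEMA3A against SEMA3A, and the count was 0 in the other comparisons. Other probe sets of H2-K1 and H2-D1 differed more, also in those comparisons. In SEMA6A+SEMA3A against SEMA6A they ran from -0.11 to 0.64 for H2-K1 and from -0.08 to 0.65 for H2-D1. Against control they ran from -0.10 to 0.49 and from -0.08 to 0.63. In SEMA6A against control it was -0.45 to 0.01 and -0.33 to 0.34. Of these, -0.45, 0.49, 0.63, 0.64 and 0.65 had an unadjusted limma p below 0.05, and none passed the adjusted threshold. Of 13 chaperones and channels of the endoplasmic reticulum, 2 had a lower value at that level in SEMA6A+SEMA3A against SEMA3A (11.2% of all genes in either direction), Sec61b (-0.20 ± 0.08) and Pdia6 (-0.26 ± 0.12). Sec61b, a subunit of the translocon, was also at -0.21 ± 0.08 against SEMA6A and at -0.36 ± 0.11 in the interaction (SE, adjusted p 0.197). Of 11 other subunits of the proteasome core, Psma5 and Psmb4 were at -0.22 ± 0.09 and 0.18 ± 0.07 in SEMA3A against control. Psma5 was at 0.27 ± 0.09 in SEMA6A+SEMA3A against SEMA3A, and Psma1 at 0.24 ± 0.10 against SEMA6A.

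Among 8 proteasome activators and assembly factors tested, Psme4, an activator of the proteasome, was the one gene past the unadjusted level, at 0.45 ± 0.18 in SEMA6A against control, -0.43 ± 0.18 in SEMA6A+SEMA3A against SEMA6A and -0.70 ± 0.25 in the interaction (SE, adjusted p 0.211). Of 8 cytosolic peptidases, which trim or destroy peptides before transport, 4 were lower at that level in SEMA6A+SEMA3A against SEMA6A (11.5% of all genes in either direction). They were Xpnpep1 (-0.35 ± 0.13), Npepps (-0.40 ± 0.15), Ide (-0.19 ± 0.08) and Blmh (-0.28 ± 0.12), each with an adjusted p of 0.423. Blmh and Xpnpep1 were at 0.31 ± 0.12 and 0.29 ± 0.13 in SEMA6A against control. Of 14 transcription regulators, Creb1 was at -0.37 ± 0.16, -0.52 ± 0.16 and -0.56 ± 0.16 in SEMA6A+SEMA3A against control, SEMA3A and SEMA6A (SE, adjusted p 1, 0.403 and 0.423) and at -0.70 ± 0.23 in the interaction (adjusted p 0.198), and the others did not pass the unadjusted level.

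In the interferon-gamma pathway, with 8 genes tested, Socs1, the feedback inhibitor of its receptor, was at -0.67 ± 0.28 in SEMA6A against control and 0.99 ± 0.39 in the interaction (SE, adjusted p 0.233), in the direction of Ifng. In SEMA6A+SEMA3A against SEMA3A the receptor gene Ifngr2 was at 0.69 ± 0.31 and the kinase gene Jak1 at -0.30 ± 0.11. Of receptors that bind class I molecules 7 of 12 were tested. Klra7, an NK cell receptor of the Ly49 family, was at 0.41 ± 0.17 in SEMA6A against control and -0.40 ± 0.17 in SEMA6A+SEMA3A against SEMA6A (SE). Klrc1, which codes for NKG2A, the receptor for Qa-1, had the opposite signs, at -0.80 ± 0.31 in SEMA6A against control and 0.70 ± 0.31 in SEMA6A+SEMA3A against SEMA6A. It was at -0.72 ± 0.31 in SEMA3A against control and at 1.42 ± 0.44 in the interaction (SE, adjusted p 0.197), while the differences of the H2-T23 probe sets were within 0.07 of 0 in all 5 comparisons. Klrd1, another receptor of the list, was also past the unadjusted level in SEMA6A+SEMA3A against SEMA6A, at 0.29 ± 0.13.

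The 5 genes outside the set whose levels over the 12 arrays were most like the mean of the 9 tested members were Selenoh (r = 0.95), Emb (0.94), Klrk1 (0.93), Cd8b1 (0.92) and Calhm6 (0.92). All 5 were low on SEMA6A replicate 2, where relative to the median of the other 11 arrays Selenoh was at -0.35 log2 units and Klrk1 at -2.54. Over those 11 arrays r was 0.81 for Selenoh, 0.78 for Emb, 0.69 for Klrk1, 0.68 for Cd8b1 and 0.88 for Calhm6. The mean deviation of the members was -0.209 log2 units on SEMA6A replicate 2, and those of the other arrays lay between -0.058 and 0.103.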

How the data were processed

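The data were 12 single-colour arrays, 3 in each of 4 groups, hybridised with cRNA made from 6 µg of total RNA according to the labels. Per the submitters' processing notes the authors used MAS5, with no version in the sources used here, and what they deposited is 1 linear intensity for each probe set. The trimmed mean of every array, without the lowest and highest 2%, was 500. With 3 arrays in a group the precision is limited by their number. Gene names came from the platform's probe table, in which 34945 probe sets name 1 gene, 932 several, and 9160 are not listed. Positions and promoter sequences came from RefSeq (GRCm38.p6).

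Values were log2(signal + 16), which understates changes of dim genes, and quantile normalized. Probe sets above their array's median on at least 3 arrays were kept (24366), and the brightest that names 1 gene stood for it (11325 genes). limma 3.58.1 in R 4.3.3 fitted 1 mean per group over all 12 arrays with a trended prior (8 residual and 5.14 prior degrees of freedom, median SE 0.153), and p-values were Benjamini-Hochberg adjusted at 0.05. The fit was tested on simulated data for SEMA6A against control, where it recovered 42% of 1.5-fold, 75.8% of 2-fold and 96.7% of 4-fold changes. The simulated noise was normal and independent between genes, with no outlying array. Correlations had 100000 permutations. All 10 members are named; differences are given for those over 2 standard errors, at least the 2 largest per comparison, and of each list up to 4 genes with the smallest p. The 14 gene lists, 5 of them cell type markers, and the members were chosen with earlier results of these data known. Same-numbered replicates did not pair: their deviations correlated between -0.357 and 0.142 over 18 pairs (-0.226 to 0.421 over 36 other pairs). Alternatives changed the normalization, the pseudocount (1 or 64), the filter (none, or the 75th percentile), the probe set taken for a gene, the arrays in the fit, the prior and the array weights, or added a replicate block.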

Additional observations from a re-analysis of the deposited data

How the results depend on the processing

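Counts of members past the adjusted threshold were repeated under the alternatives for the 7 tests and the correlation with Ifng, 178 counts in all, and 174 equalled the main one. With array weights set gene by gene, 1 member passed in the interaction, Psmb9 at -0.35 ± 0.10 (SE, adjusted p 0.0319), where 1848 of all genes passed. For the correlation with Ifng, 1 member passed when each gene was taken from its most variable probe set (by interquartile range) and 1 when every probe set was used, Erap1 both times (adjusted p 0.0128 and 0.0199), and leaving out single arrays gave 0 to 1, with Tap2 at 0.0453 without SEMA6A replicate 3. All 7 counts from tests of groups stayed at 0 when any 1 array was left out, and at 0 with a replicate block. Of 274 repeated values of the 12 differences named gene by gene, 273 kept their direction and stayed on the same side of the threshold. Tapbp in SEMA6A+SEMA3A against SEMA3A was -0.08 with its most variable probe set and 0.15 with the brightest. B2m in SEMA6A against control ran from -0.58 to -0.07 and Erap1 from -0.45 to -0.07, at lowest adjusted p-values of 0.0633 and 0.0827. Counts over all genes, 0 in each test, reached 514 in SEMA6A against control, 383 in SEMA6A+SEMA3A against SEMA6A, 1285 in the interaction and 1 in SEMA6A+SEMA3A against control without SEMA6A replicate 1. With array weights they reached 13 in SEMA6A+SEMA3A against control, 623 against SEMA3A, 9 against SEMA6A and 360 in the F-test. The causes were not tested.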

Other observations

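Markers of the cells in the coculture were compared in the same fit, and none passed the adjusted threshold. Of 9 T cell genes tested, 1 was above 0 and 8 below in SEMA6A against control. In SEMA3A against control 5 were above and 4 below, and in SEMA6A+SEMA3A against SEMA6A 7 above and 2 below. Cd3e, a chain of the T cell receptor complex, was at 0.39 in SEMA6A and 0.27 in SEMA3A against control. It was at -0.32 in SEMA6A+SEMA3A against SEMA6A, so in SEMA6A against control and here it ran against most of its list. Cd6, a costimulatory receptor of T cells, was at -1.27 in SEMA6A against control and 1.42 in SEMA6A+SEMA3A against SEMA6A, with 2.33 ± 0.60 in the interaction (SE, adjusted p 0.197). Cd8a ran from 496 to 4231 and Klrk1 from 489 to 3809 in signal over the 12 arrays. Of 7 NK cell genes tested, 4 were above 0 and 3 below in SEMA6A against control. In SEMA3A against control 6 were above and 1 below, and in SEMA6A+SEMA3A against SEMA3A 2 above and 5 below. Gzma, a cytotoxic protease, was at 0.20 in SEMA6A and 0.21 in SEMA3A against control, and Fcer1g was at 0.23 in SEMA3A. Ncr1, an activating receptor, was at -0.60 in SEMA6A against control and at -0.82 in SEMA6A+SEMA3A against SEMA3A. Of 3 B cell genes tested, none passed an unadjusted p of 0.05 in any comparison or the interaction.

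Of 5 macrophage and dendritic cell genes tested, 3 were above 0 and 2 below in SEMA6A against control, and 5 above in SEMA3A. Itgax was at 0.34 in SEMA6A and 0.60 in SEMA3A against control, and Cd68 at 0.34 in SEMA6A and 0.37 in SEMA3A. Their list summed to 700 to 966 in SEMA6A, 807 to 1017 in SEMA3A, 767 to 831 in SEMA6A+SEMA3A and 674 to 740 in control. Of 15 squamous carcinoma genes tested, Krt19, a keratin of simple epithelia, was at 1.70 ± 0.53 in SEMA6A against control (SE, adjusted p 0.475), 1.30 ± 0.53 in SEMA3A against control and -1.17 in SEMA6A+SEMA3A against SEMA6A. The median of that list was 0.36 in SEMA6A against control, 0.13 in SEMA3A against control and -0.36 in SEMA6A+SEMA3A against SEMA6A. Not all of its genes moved alike. In the interaction Krt19 was at -2.47 ± 0.75 and Perp at 0.70 ± 0.29 (SE), and of the 15 genes 5 were above 0 and 10 below. Perp was also at 0.53 ± 0.20 in SEMA6A+SEMA3A against SEMA3A. The part of these markers in the values of the class I genes was not tested.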
